A study of Mus musculus with 8 samples.

Results

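Voltage-gated potassium channels and their subunits were followed in PrL tissue, read here as the prelimbic cortex, of mice labelled SNI and of Sham mice. SNI is read as spared nerve injury, a model of neuropathic pain in which branches of the sciatic nerve are cut. The genes were taken by symbol: every row of the count table whose name starts with Kcna, Kcnb, Kcnc, Kcnd, Kcnf, Kcng, Kcnh, Kcnq, Kcns, Kcnv, Kcnab, Kcnip or Kcne followed by a digit. That rule found 46 of the 14765 genes, all protein coding, on 16 chromosomes. Another 6 protein-coding genes of these families in the annotation, Kcna7, Kcna10, Kcne1, Kcne2, Kcne3 and Kcnv2, are not analysed here. Bulk poly(A) RNA was sequenced from 4 SNI libraries and 4 Sham libraries, all of them from C57 mice and from brain tissue dissected as PrL. Age, sex, the time since surgery and the number of animals behind a library are not given in the sources used here, so each p-value rests on variation among libraries that could be partly technical. Library totals were 14735602 to 19602487 counts, and a member held between 3 and 7895 counts in a library.

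Voltage-gated potassium channels open when the membrane depolarises and let potassium leave the cell, which repolarises it. Each channel is built from pore-forming subunits. Kv1 to Kv4 subunits (Kcna, Kcnb, Kcnc and Kcnd) shape the action potential and the current that follows it, Kv7 subunits (Kcnq) carry the M-current that damps repetitive firing, and the Kcnh genes encode the EAG, ERG and ELK channels. The Kcnf, Kcng, Kcns and Kcnv genes encode modifier subunits, which form no working channel alone and change the gating of Kv2 channels when they join them. Cytosolic beta subunits (Kcnab), the calcium-binding KChIPs (Kcnip) and the small membrane proteins of the KCNE family (Kcne) attach to the pore subunits and alter how they open, close or reach the membrane.

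To set members beside each other, levels were expressed in CPM, counts scaled to a common library size with TMM factors, per kilobase of annotated exon. On this scale the most abundant member was Kcnab2, the main brain beta subunit, at 68.2 ± 13.4 in SNI and 79.2 ± 3.25 in Sham libraries (SD, n = 4 each). Kcnip3, a KChIP also known as calsenilin, followed at 40.6 ± 4.09 in SNI and 49.2 ± 4.28 in Sham, and Kcnf1, a modifier subunit, at 37.7 ± 5.11 in SNI and 44.9 ± 3.85 in Sham. These 3 had higher means than each pore-forming member given here, though the spreads of Kcnip3 and Kcnf1 overlapped, and in SNI those of Kcnf1 and Kcnh3 did too. Among the pore-forming genes given here Kcnh3, an ELK channel of the forebrain, had the highest level per kilobase, 30.1 ± 5.45 in SNI and 36.4 ± 0.717 in Sham. Kcnc4 (a Kv3 channel) had 28.4 ± 3.62 in SNI and 30.9 ± 2.20 in Sham, and overlapped with Kcnh3 in SNI but not in Sham libraries. At the other end Kcnh8 had 0.0921 ± 0.0263 in SNI and 0.0880 ± 0.0434 in Sham libraries, below all other members. In CPM not divided by length, 14 members averaged over 100 CPM, 19 lay between 10 and 100 CPM and 13 under 10 CPM.

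**Figure D1:**
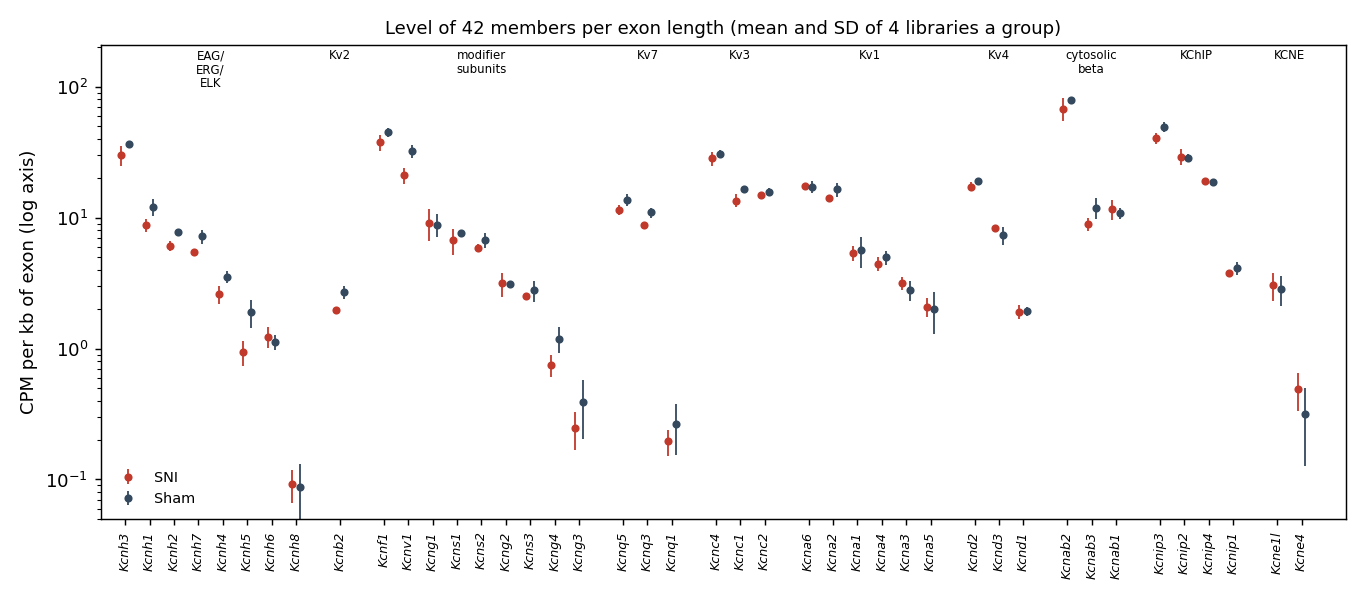
Level of 42 members by subfamily, in CPM per kilobase of exon on a log axis, with the mean and SD of 4 SNI libraries (left point of each pair) and 4 Sham libraries (right point). Kcnab2 is the highest point and Kcnh8 the lowest in both groups.

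The comparison of SNI with Sham asked which of these genes change in prelimbic cortex after nerve injury. Of the 46 members 45 had enough counts to be tested, and 8 were lower in SNI at a Benjamini-Hochberg adjusted p under 0.05 over all 13911 genes tested (edgeR quasi-likelihood test). They included Kcnv1, Kcnb2, Kcnh5, Kcnh7, Kcnh1, Kcnh2 and Kcnq3. These 8 make up 17.8% of the tested members, and 2.87% of all tested genes were lower by the same rule. No member was higher by edgeR, where 2.15% of all tested genes were. By DESeq2 and by limma voom 0 members were higher, against 511 and 355 of all 13911 genes. At an unadjusted edgeR p under 0.05, 18 of 45 members were lower and 0 higher. Of all 13911 genes 1492 were lower and 1439 higher by that rule, 21.1% in either direction. In 14 members the 4 SNI values all lay below the 4 Sham values, 31.1% of those tested against 7.02% of all genes, and in 0 did they all lie above (5.64% of all genes). The median log2 fold change over the tested members was -0.19, and over all tested genes 0.011. Of the members 32, or 71.1%, had a log2 fold change below 0, against 47.8% of all genes. In bulk tissue fewer cells of a type and less RNA per cell cannot be told apart, and summed pan-neuronal markers were lower in the same SNI libraries, with values given after the gene groups. With library totals alone in place of TMM, 5 members were lower and 0 higher, and over all genes the calls split into 276 lower and 446 higher, against 399 lower and 299 higher with TMM.

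**Figure D2:**
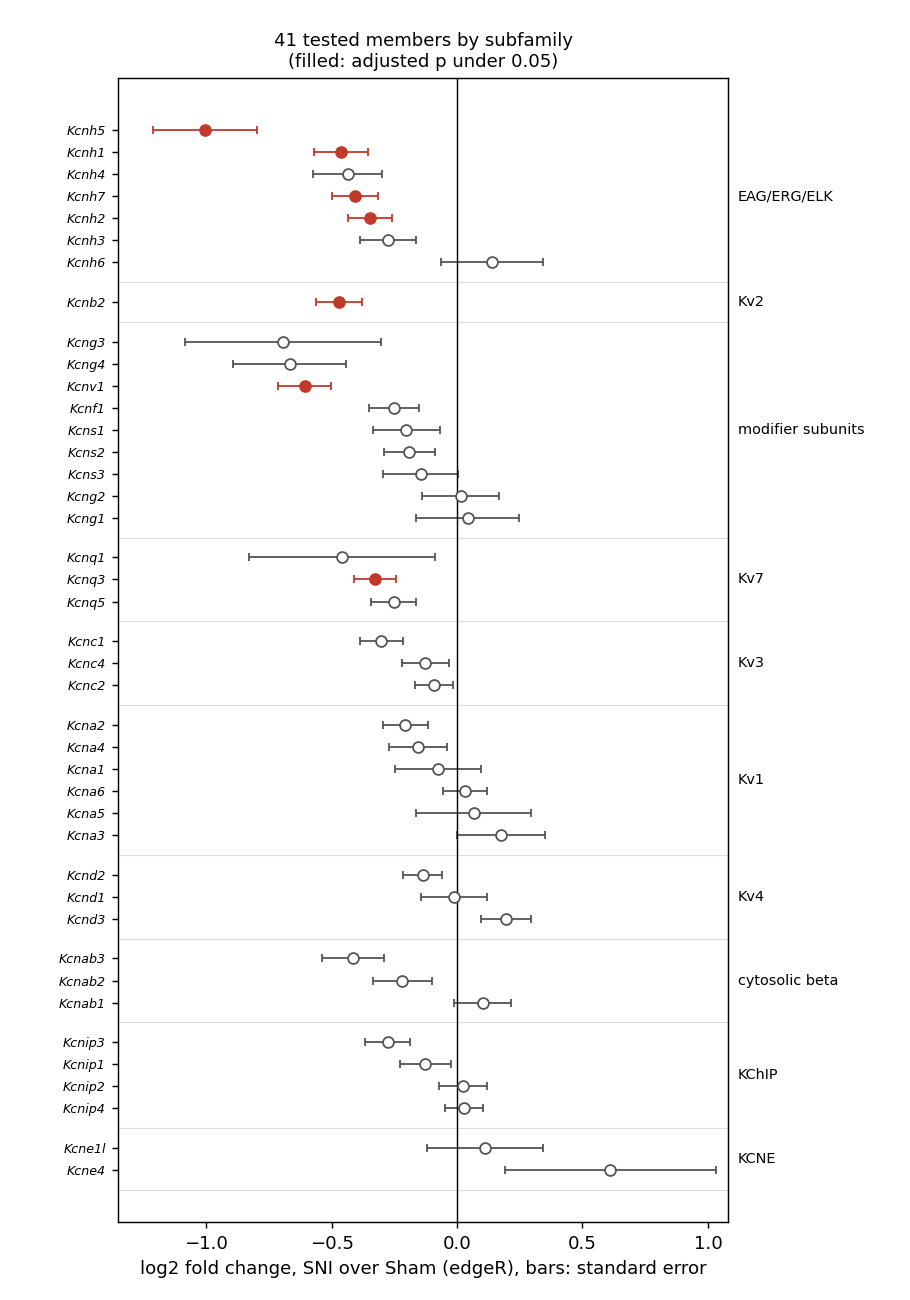
The log2 fold change of SNI over Sham (points) with its standard error (bars) for 41 tested members, by subfamily, filled where the adjusted p was under 0.05. The 7 filled points all lie below 0, 4 of them in the EAG, ERG and ELK group, and the Kv1, Kv4, cytosolic beta, KChIP and KCNE groups hold none.

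The EAG, ERG and ELK channels held the most calls. Of the 8 Kcnh genes 7 were tested, 4 fell, 0 rose, and the median log2 fold change was -0.41. Kcnh5 (EAG2) had 4.89, 3.42, 3.00 and 4.04 CPM in SNI replicates 1 to 4, against 6.17, 7.04, 7.08 and 10.4 CPM in Sham replicates 1 to 4. All SNI values lay below all Sham values, and Sham replicate 4 stood above the other Sham libraries. Its log2 fold change of -1.005 ± 0.207 (SE, edgeR adjusted p = 0.0132) was the largest in size among the 45, a level 50.2% lower in SNI. It rests on few reads, 79, 69, 45 and 67 counts in the SNI libraries and 91, 106, 112 and 182 in the Sham libraries. Kcnh1 (EAG1), the closest relative of Kcnh5, had 69.5, 57.3, 59.0 and 71.8 CPM in SNI replicates 1 to 4, against 76.7, 77.6, 102 and 98.5 CPM in the Sham replicates. The groups did not overlap, and Sham replicates 3 and 4 were the highest. Its log2 fold change was -0.46 ± 0.109 (SE, edgeR adjusted p = 0.0255).

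The ERG genes, whose channels carry a slowly decaying current that limits excitability, were divided. Kcnh7 (ERG3), which is mainly neuronal, had 85.4, 85.6, 84.1 and 75.4 CPM in the SNI replicates, against 100.3, 96.5, 124 and 117 CPM in the Sham replicates, with no overlap. Kcnh2 (ERG1), best known for repolarising the heart, had 31.2, 26.1, 30.1 and 31.3 CPM in the SNI replicates, against 38.5, 39.3, 37.7 and 35.3 CPM in the Sham replicates, again with no overlap. Their log2 fold changes were -0.41 ± 0.0903 and -0.35 ± 0.0886 (SE, edgeR adjusted p = 0.0183 and 0.0347). Kcnh6 (ERG2) ranged over 3.22 to 5.02 CPM in SNI and 3.21 to 4.36 CPM in Sham libraries, with a log2 fold change of 0.14 that did not pass. Exons of Kcnh7 overlap those of Gca on the opposite strand, whose log2 fold change was -0.0076. Of the ELK genes, Kcnh3 had 192, 126, 189 and 186 CPM in the SNI replicates, against 204, 212, 213 and 209.7 CPM in the Sham replicates. Its groups did not overlap, SNI replicate 2 lay far below the other SNI libraries, and the log2 fold change of -0.28 missed the threshold (edgeR adjusted p = 0.168). Kcnh4 ranged over 8.42 to 12.3 CPM in SNI and 12.3 to 15.8 CPM in Sham libraries, without overlap by a margin smaller than this rounding shows. Its log2 fold change of -0.44 missed the threshold as well (edgeR adjusted p = 0.0811). Kcnh4 was called lower by DESeq2, and by edgeR without SNI replicate 1. Kcnh8 was too scarce to be tested, with 6 to 9 counts in SNI and 3 to 10 in Sham libraries.

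Of the 4 genes of this group that fell, Kcnh1, Kcnh5 and Kcnh7 have separate promoters on different chromosomes. These are shown here so that the starts of genes lower in the same libraries can be read side by side. Each line gives the 250 bases before the RefSeq start on the gene's own strand (GRCm38.p6), in lower case, with capitals marking the GC box GGGCGG on either strand and the shared core TGACG of the cAMP response element on either strand. The windows are chr1:192190527-192190776, plus strand for Kcnh1, chr12:75177333-75177582, minus strand for Kcnh5 and chr2:63184288-63184537, minus strand for Kcnh7.
Kcnh1: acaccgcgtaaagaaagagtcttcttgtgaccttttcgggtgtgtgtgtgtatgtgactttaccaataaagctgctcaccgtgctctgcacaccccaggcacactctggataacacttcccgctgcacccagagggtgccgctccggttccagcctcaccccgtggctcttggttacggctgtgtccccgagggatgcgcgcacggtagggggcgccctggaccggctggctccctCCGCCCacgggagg
Kcnh5: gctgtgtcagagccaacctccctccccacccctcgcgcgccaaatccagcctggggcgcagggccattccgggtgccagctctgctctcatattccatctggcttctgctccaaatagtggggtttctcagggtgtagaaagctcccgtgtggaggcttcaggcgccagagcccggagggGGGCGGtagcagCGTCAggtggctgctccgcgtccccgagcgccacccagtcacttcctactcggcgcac
Kcnh7: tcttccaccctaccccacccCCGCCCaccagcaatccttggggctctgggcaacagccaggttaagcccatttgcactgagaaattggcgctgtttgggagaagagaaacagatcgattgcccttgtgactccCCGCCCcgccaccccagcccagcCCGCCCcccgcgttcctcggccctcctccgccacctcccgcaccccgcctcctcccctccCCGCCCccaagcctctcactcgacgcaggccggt
The windows hold 1, 1 and 4 GC boxes, and GC makes up 62.0%, 65.6% and 67.6% of their bases, against a median of 52.4% over all 32851 promoters of this length. The window of Kcnh2, not printed, holds 3 GC boxes and 73.6% GC. It is chr5:24329592-24329841, minus strand, inside the gene's span of 24319589 to 24351604. It thus precedes a start within the gene, while the 3 printed windows lie at the gene's end. A GC box stood in 32.7% of all promoters and in 23 of the 45 promoters listed for 31 members. TGACG stood in 17.8% of all promoters, in 7 of the 45 and, of these 3, in that of Kcnh5. The E-box CACGTG stood in 6.02% of all promoters and in 4 of the 45. The full element TGACGTCA, which contains TGACG (1.55% of all promoters), and the TATA box TATAAA (12.4%) were in 0 of the 45.

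Kv2 channels are the main delayed rectifiers of cortical pyramidal neuron bodies, and the Kv2 pore gene Kcnb2 fell. It had 29.2, 29.8, 30.0 and 29.7 CPM in SNI replicates 1 to 4, against 34.9, 45.6, 43.7 and 40.3 CPM in Sham replicates 1 to 4. The SNI values lay within 1 CPM of each other and below every Sham value. The log2 fold change was -0.47 ± 0.0924 (SE, edgeR adjusted p = 0.0103).

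Of the 9 modifier subunits that join Kv2 channels 1 fell, 0 rose and 8 did not pass, with a median log2 fold change of -0.20. The one that fell was Kcnv1, whose protein suppresses and slows Kv2 currents and which has the smallest p of all members. It had 96.2, 109, 78.6 and 103 CPM in SNI replicates 1 to 4, against 127, 143, 155 and 165 CPM in Sham replicates 1 to 4. Every SNI library was below every Sham library, SNI replicate 3 was the lowest, and the log2 fold change of -0.61 ± 0.105 (SE, edgeR adjusted p = 0.00522) corresponds to a level 34.3% lower in SNI. Kcnf1, the most abundant modifier, had 191, 169.8, 152 and 208 CPM in the SNI replicates, against 202, 229.7, 232 and 196 CPM in the Sham replicates. These overlapped, and the log2 fold change of -0.25 missed the threshold (edgeR adjusted p = 0.156). Kcng4 had 2.85 ± 0.562 CPM in SNI and 4.55 ± 1.03 CPM in Sham libraries (SD, n = 4 each), without overlap (log2 fold change -0.67, edgeR adjusted p = 0.101). Of the rest, Kcng3, at under 3 CPM in every library, had a log2 fold change of -0.69, Kcns1, Kcns2 and Kcns3 had -0.20, -0.19 and -0.14, and Kcng1 and Kcng2 had 0.042 and 0.015, with an edgeR adjusted p of 0.293 or more for each.

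**Figure D3:**
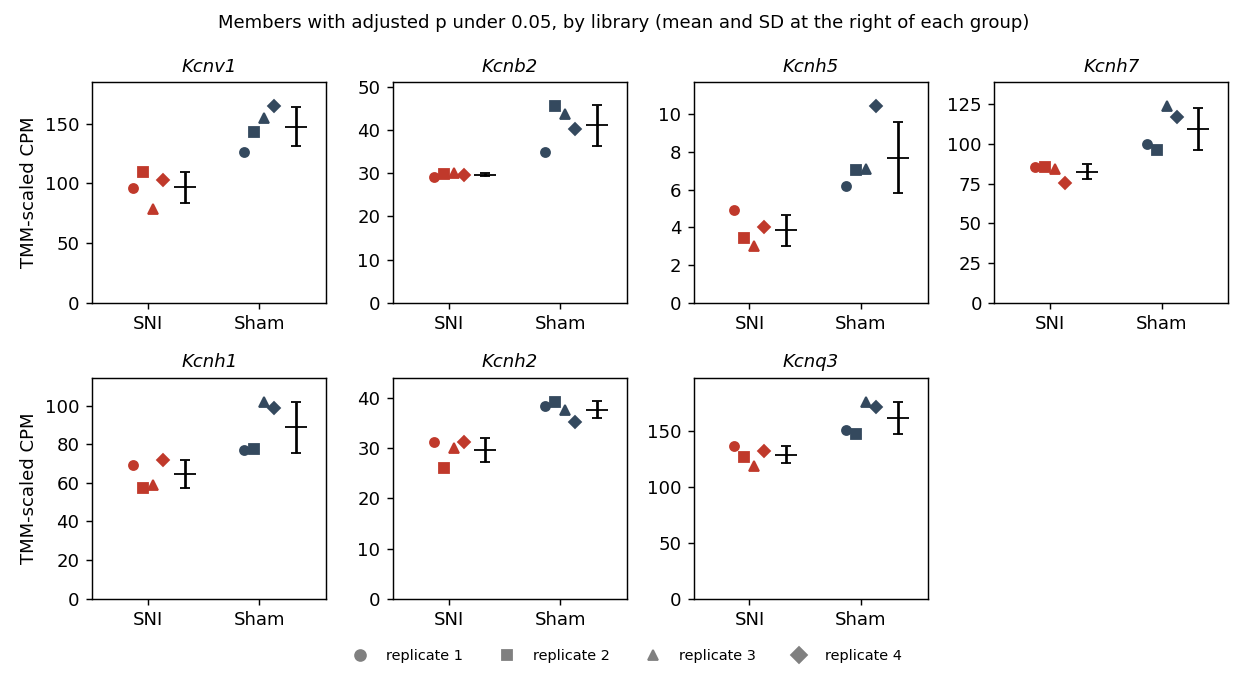
TMM-scaled CPM of 7 members lower in SNI, in 4 SNI libraries (left) and 4 Sham libraries (right) per panel, with symbols for replicates and the mean and SD beside each group on axes that start at 0. In each of the 7 panels the SNI points lie below the Sham points, with the widest relative gap for Kcnh5 and a narrow gap for Kcnh1.

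Among the Kv7 genes 1 of 5 fell, Kcnq3. Its protein is a subunit of the main M-channel of cortical neurons, and that of Kcnq5 joins the channel in some. Kcnq3 had 137, 127, 119 and 132 CPM in SNI replicates 1 to 4, against 151, 147, 176 and 171 CPM in Sham replicates 1 to 4. The highest SNI library was below the lowest Sham library, and the log2 fold change was -0.33 ± 0.0832 (SE, edgeR adjusted p = 0.0347). Kcnq5 had 83.2, 99.8, 85.9 and 84.3 CPM in the SNI replicates, against 96.7, 94.8, 114 and 116 CPM in the Sham replicates, where SNI replicate 2 lay above Sham replicates 1 and 2. Its log2 fold change of -0.25 missed the threshold (edgeR adjusted p = 0.119). Kcnq1, the heart's partner of KCNE proteins, had 10 to 17 counts in SNI and 11 to 30 counts in Sham libraries, and its exons overlap the antisense transcript Kcnq1ot1, so its log2 fold change of -0.46 is uncertain.

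Kv3 channels let neurons fire fast and are prominent in parvalbumin interneurons. Of the 4 Kv3 genes 0 passed by edgeR, 2 were lower at an unadjusted p under 0.05, Kcnc1 among them, and DESeq2 called 1, Kcnc1. The share of all tested genes at an unadjusted edgeR p under 0.05 was 21.1%, in either direction. Kcnc1 had 146, 111, 129 and 125 CPM in SNI replicates 1 to 4, against 157, 149, 162 and 163 CPM in Sham replicates 1 to 4, with no overlap and the lowest value in SNI replicate 2. Its log2 fold change of -0.30 ± 0.0864 (SE) had an edgeR adjusted p of 0.0551, just above the threshold. Kcnc2 and Kcnc4 had log2 fold changes of -0.091 and -0.13. Kcnc4 had 119, 88.9, 98.1 and 109.7 CPM in the SNI replicates, against 115, 102, 118 and 118 CPM in the Sham replicates, again overlapping. Summed over 9 GABAergic interneuron markers, Pvalb among them, levels were 1021 to 1275 CPM in SNI and 1115 to 1458 CPM in Sham libraries, overlapping ranges.

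In Kv1, the axonal low-threshold channels, 0 of 6 genes passed by edgeR, 1 was lower at an unadjusted p under 0.05, Kcna2, and DESeq2 called 0. An unadjusted edgeR p under 0.05 was found in 21.1% of all tested genes, in either direction. Kcna2 had 172, 170.00, 175 and 162 CPM in SNI replicates 1 to 4, against 179, 172, 212 and 221 CPM in Sham replicates 1 to 4. SNI replicates 1 and 3 lay above Sham replicate 2 and below the other Sham libraries, and the log2 fold change was -0.21 ± 0.0889 (SE, edgeR adjusted p = 0.194). Kcna6, the most abundant Kv1 gene per kilobase of exon, had 107, 98.1, 102 and 111 CPM in the SNI replicates, against 111, 93.2, 112 and 92.8 CPM in the Sham replicates. Those ranges overlapped throughout, with a log2 fold change of 0.032. Kcna4, which adds the fast inactivating current, had a log2 fold change of -0.16 (edgeR adjusted p = 0.476), Kcna1 had -0.074, Kcna5 had 0.066 and Kcna3, a channel also known from immune cells, had 0.18.

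Kv4 genes, which carry the dendritic A-type current, had values on both sides of 0, and 0 of 3 passed by edgeR or DESeq2. At an unadjusted edgeR p under 0.05 there were 0, against 21.1% of all tested genes. Kcnd2, the main Kv4 of pyramidal neurons, had 87.2, 92.5, 79.9 and 97.0 CPM in SNI replicates 1 to 4, against 95.9, 103, 98.1 and 95.5 CPM in Sham replicates 1 to 4 (log2 fold change -0.14, edgeR adjusted p = 0.332). Kcnd3 had 78.1, 81.8, 80.4 and 81.8 CPM in the SNI replicates, against 61.0, 83.5, 76.3 and 60.6 CPM in the Sham replicates (log2 fold change 0.20, edgeR adjusted p = 0.271). Neither gene separated the groups alone. Their ratio within a library, Kcnd3 over Kcnd2 per kilobase of exon, was 0.454 to 0.541 in SNI and 0.341 to 0.438 in Sham libraries, which did not overlap. This ratio was among 7 looked at after the values were known and carries no test, and Kcnd3 shares exon sequence with the antisense transcript Kcnd3os. Kcnd1 had a log2 fold change of -0.011.

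Auxiliary subunits showed no call by edgeR: 0 of 3 beta subunits, 0 of 4 KChIPs and 0 of 2 KCNE genes passed. At an unadjusted edgeR p under 0.05 there were 2 among these 9, against 21.1% of all tested genes in either direction. The 2 were Kcnab3 and Kcnip3, both lower and both called by DESeq2. Kcnab3 had 29.1, 26.4, 23.2 and 23.2 CPM in SNI replicates 1 to 4, against 34.2, 42.8, 29.6 and 29.5 CPM in Sham replicates 1 to 4, without overlap (log2 fold change -0.42 ± 0.123 SE, edgeR adjusted p = 0.0636), and its exons overlap those of an antisense transcript, Kcnab3os. Kcnab2, the leading member by level, had 409, 279, 377 and 455 CPM in the SNI replicates, against 440.3, 417, 458 and 453 CPM in the Sham replicates. SNI replicate 2 was far below the rest, the groups overlapped, and the log2 fold change was -0.22 (edgeR adjusted p = 0.307). Kcnab1, which makes Kv1 channels inactivate, had a log2 fold change of 0.10.

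Of the KChIPs, which set how fast Kv4 channels inactivate and recover, Kcnip3 had 148, 151, 123 and 154 CPM in SNI replicates 1 to 4, against 194, 178, 169 and 157 CPM in Sham replicates 1 to 4. The groups did not overlap, and the log2 fold change of -0.28 ± 0.0909 (SE) did not pass (edgeR adjusted p = 0.0912). Kcnip1 had a log2 fold change of -0.13 (edgeR adjusted p = 0.506), and Kcnip2 and Kcnip4 had 0.024 and 0.028, the smallest differences of this family. Of the KCNE genes, Kcne4 had 1.24, 1.04, 1.93 and 1.02 CPM in the SNI replicates, against 0.271, 0.598, 1.39 and 1.09 CPM in the Sham replicates. It overlapped between groups at 4 to 29 counts a library (log2 fold change 0.61 ± 0.420 SE, edgeR adjusted p = 0.432). Kcne1l, also called Kcne5, had 4.72 ± 1.15 CPM in SNI and 4.38 ± 1.11 CPM in Sham libraries (SD, n = 4 each) and a log2 fold change of 0.11 (edgeR adjusted p = 0.827).

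Among 28 other genes whose proteins bind, anchor or regulate these channels, 2 fell, 0 rose and 26 did not pass, with a median log2 fold change of -0.14. For this list and those below, 2.87% of all tested genes fell and 2.15% rose by edgeR. An unadjusted edgeR p under 0.05 was found in 21.1% of all tested genes. Whether any of these short lists exceeds those shares was not tested. Dlg4, the scaffold PSD-95 that clusters Kv1 channels and glutamate receptors, had 789.99 ± 92.4 CPM in SNI and 1022 ± 14.7 CPM in Sham libraries (SD, n = 4 each) (log2 fold change -0.37, edgeR adjusted p = 0.0257). Lgi1, a secreted protein that slows Kv1 inactivation, had 93.5 ± 5.26 CPM in SNI and 115 ± 9.08 CPM in Sham libraries (SD, n = 4 each) (log2 fold change -0.30, edgeR adjusted p = 0.0453). Both calls ended under other settings, with 0 of the 28 called without SNI replicate 3, Sham replicate 2 or Sham replicate 3. Dpp6, the Kv4 partner that speeds its gating, and Calm3, which encodes the calmodulin bound by Kv7, had log2 fold changes of -0.30 and -0.32 and did not pass (edgeR adjusted p = 0.0527 and 0.0660). Of 11 tested inward rectifier genes 1 fell, the G-protein-gated Kcnj3 (log2 fold change -0.27, edgeR adjusted p = 0.0479). Of 9 tested leak channel genes 0 passed and 3 were lower at an unadjusted p under 0.05, with the smallest p in Kcnk4, a mechanosensitive channel (log2 fold change -0.54, edgeR adjusted p = 0.0638). Of 9 tested calcium- and sodium-activated channel genes 1 rose, Kcnn3, a small-conductance channel (log2 fold change 0.52, edgeR adjusted p = 0.0178). The median log2 fold changes were -0.27 for 11 inward rectifiers, -0.095 for 9 leak channels and 0.058 for the calcium- and sodium-activated group. The difference between these groups and the voltage-gated genes was not tested.

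Summed over the 46 members, counts made up 0.350%, 0.311%, 0.324% and 0.350% of all counts in SNI replicates 1 to 4, against 0.361%, 0.368%, 0.387% and 0.378% in Sham replicates 1 to 4. As parts of each library's total count, without TMM factors, all 4 SNI shares lay below all Sham shares. SNI libraries were not alike: among the 45 tested members, SNI replicate 2 held the lowest of the 8 values in 14 and SNI replicate 3 in 11, while SNI replicates 1 and 4 held it in 2 and 6. Sham replicates 3 and 4 held the highest value in 11 and 10 members.

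Markers of some cell types also differed between the groups, some lower and some higher in SNI. All 10 excitatory neuron markers on the list had rows, Slc17a7 and Neurod2 among them. So had all 10 astrocyte markers and 11 of 12 striatal markers, so presence alone does not mark the tissue as cortical. Summed over 10 pan-neuronal markers, levels were 8009 to 9304 CPM in SNI and 9500.4 to 10005 CPM in Sham libraries, and over 10 upper-layer markers 598 to 676 and 709 to 889.99 CPM. Neither pair of ranges overlapped. Of the pan-neuronal markers 2 of 10 fell (Rbfox3 and Nefm), of the excitatory markers 3 of 10 (Itpka, Nrn1 and Emx1) and of the upper-layer markers 3 of 10 (Lamp5, Cux2 and Mdga1), and 0 rose. By the same edgeR threshold 2.87% of all tested genes fell and 2.15% rose. Excitatory neuron markers summed to 3852 to 5374 CPM in SNI, lowest in replicate 2, and 5168 to 5944 CPM in Sham libraries. The 10 deep-layer markers measured summed to 609.9 to 706 CPM in SNI and 448 to 634 CPM in Sham libraries, and 2 of 10 rose (Hs3st4 and Ntsr1). The 11 striatal markers measured summed to 381 to 908 CPM in SNI, highest in replicates 2 and 4, and 257 to 505 CPM in Sham libraries. Astrocyte markers summed to 3188 to 4164 and 3313 to 3961 CPM, oligodendrocyte markers to 4435 to 7858 and 3173 to 7030.3 CPM, microglia markers to 473 to 756 and 424 to 513 CPM and vessel markers to 478 to 733 and 492 to 596 CPM in SNI and Sham libraries, all overlapping. The 7 choroid plexus and ependymal markers measured summed to 16.05 to 22.1 CPM in SNI and 9.67 to 13.02 CPM in Sham libraries, without overlap, and Ttr and Clic6 rose, as did P2ry12 and Tmem119 of the 10 microglia markers. No astrocyte, oligodendrocyte, vessel, GABAergic or striatal marker passed by edgeR. Every marker with a row had counts in each library, and Bcl11b, Dlx6os1, Six3, Folr1, Kcnj13, Otx2 and Tmem212 are not analysed here. The part of cell type markers in the members' difference was not tested beyond the ratios that follow.

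**Figure D4:**
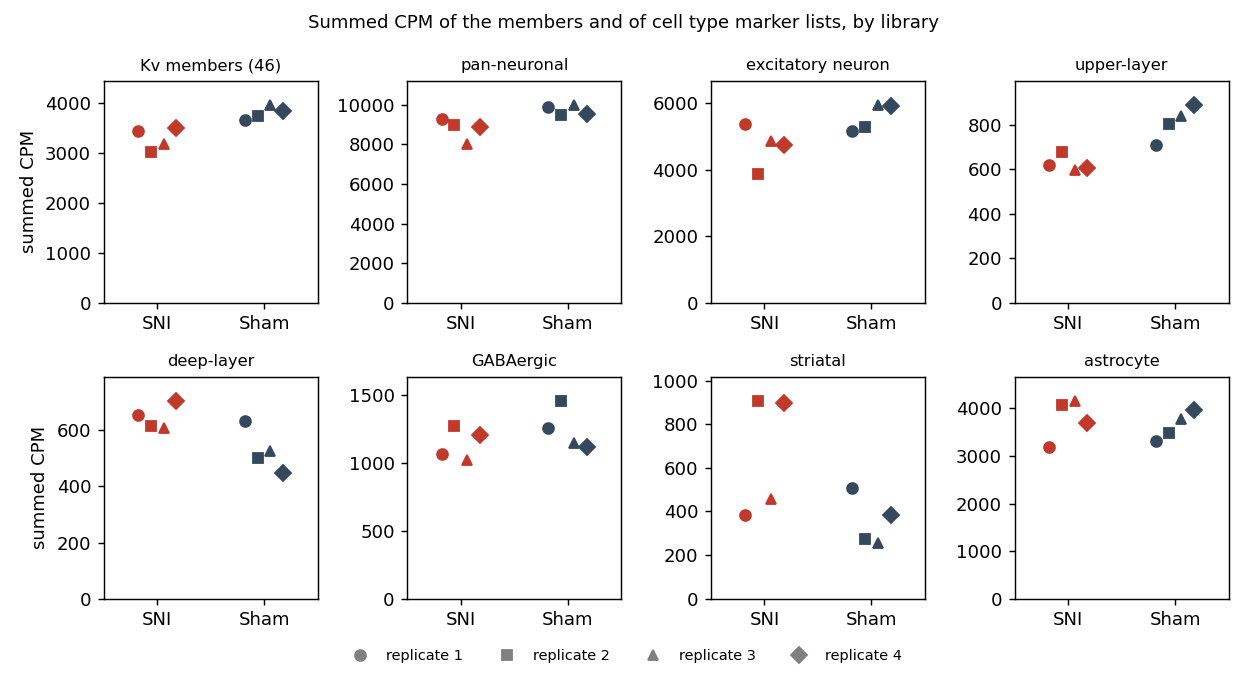
Summed CPM of the 46 members and of 7 marker lists in each of 4 SNI libraries (left) and 4 Sham libraries (right), with symbols for replicates and axes that start at 0. The members, the pan-neuronal markers and the upper-layer markers do not overlap between groups, while the excitatory, deep-layer, GABAergic, striatal and astrocyte lists do.

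The members were then set against these markers within each library. The summed level of the 46 members was 33.6 to 39.7% of the pan-neuronal sum in SNI and 37.1 to 40.1% in Sham libraries, with means of 37.4% and 39.0%. On the other scales the SNI mean was the higher: the members' sum was 63.9 to 78.3% of the excitatory sum in SNI and 65.0 to 70.9% in Sham libraries (means 70.5% and 68.3%). It was 446 to 579% of the upper-layer sum in SNI and 431 to 517% in Sham libraries (means 528% and 471%). The groups overlapped on all 3 scales. Of the 8 members called, 3 kept 4 SNI values below all 4 Sham values relative to the pan-neuronal sum (1.97% of all genes did). Relative to the excitatory sum 1 did (0.712% of all genes), and relative to the upper-layer sum 2 did (0.496% of all genes). The 8 were picked as lower in SNI from these same libraries, and all 8 were without overlap in CPM. The shares over all genes, which were not so picked, are therefore no like comparison. Kcnh5 kept its SNI values below all Sham values on all 3 scales. Relative to the excitatory sum it stood at 0.0616 to 0.0911% in SNI and 0.119 to 0.177% in Sham libraries. Kcnv1 stood at 13.2 to 17.0% of the upper-layer sum in SNI and 17.8 to 18.5% in Sham libraries, and at 0.981 to 1.22% and 1.28 to 1.72% of the pan-neuronal sum, both without overlap. Against the excitatory sum its groups overlapped through SNI replicate 2. Kcnq3 was apart on the pan-neuronal scale (1.41 to 1.49% in SNI and 1.53 to 1.79% in Sham libraries). Kcnb2, Kcnh1, Kcnh2 and Kcnh7 overlapped on all 3. These ratios were chosen after the values were seen and carry no test.

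The calls differed in how far they depended on single libraries. Kcnv1, Kcnb2 and Kcnh5 passed whichever of the 8 libraries was left out, with a highest edgeR adjusted p of 0.0254, 0.0464 and 0.0478. Kcnh7 lost its call without SNI replicate 3 or Sham replicate 3, Kcnh1 without any of SNI replicates 2 and 3 and Sham replicates 3 and 4, and Kcnh2 without any of SNI replicates 2 and 3 and Sham replicates 1, 2 and 3. Kcnq3 lost it without any of SNI replicates 2, 3 and 4 and Sham replicates 1, 3 and 4. The highest edgeR adjusted p was 0.0864 for Kcnh7, 0.0934 for Kcnh1, 0.0958 for Kcnh2 and 0.140 for Kcnq3. The number of members called was 4 without SNI replicate 2 and 3 without SNI replicate 3 or Sham replicate 3. Over all genes those called lower were 322, 199 and 168 in these fits, against 399 with all 8 libraries. With SNI replicates 2 and 3 both left out 1 member was called, Kcnv1 (log2 fold change -0.57, edgeR adjusted p = 0.0126), and 128 genes in all were lower. With SNI replicates 2 and 4 both left out 2 members were called, Kcnv1 and Kcnb2, and 265 genes in all were lower. Without SNI replicates 2 and 3 the log2 fold change of Kcnb2 was -0.48 and that of Kcnh5 -0.79 (edgeR adjusted p = 0.0582 and 0.130).

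**Figure D5:**
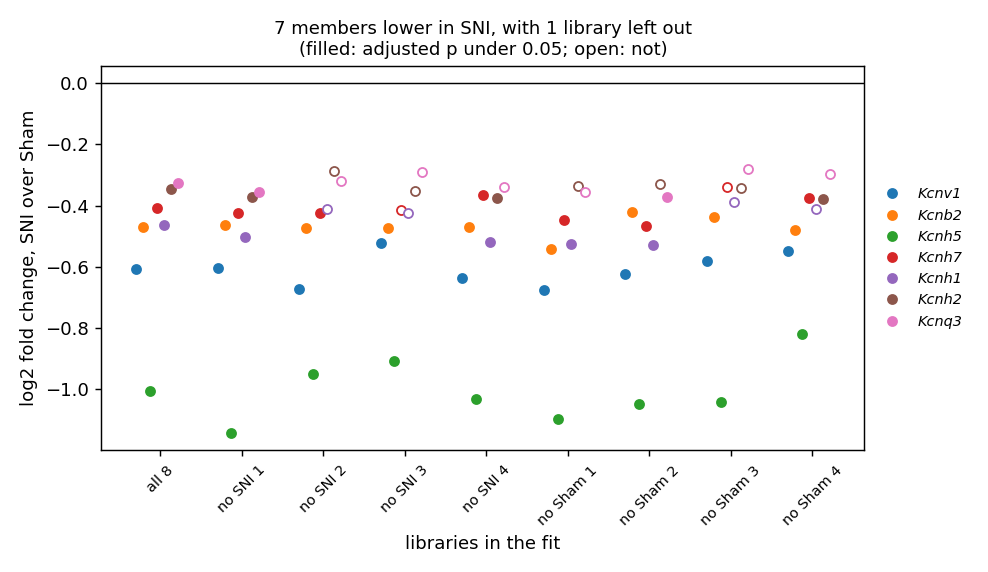
Log2 fold change of SNI over Sham for 7 members lower in SNI (colours) with all 8 libraries and with each library left out in turn, filled where the edgeR adjusted p was under 0.05. Kcnv1, Kcnb2 and Kcnh5 stay filled throughout, the other 4 are open in at least 2 of the fits, and all points lie below 0.

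The 8 members that fell had a longer median span than the rest, with overlapping ranges. Their genomic spans had a median of 290.2 kb (8.64 to 490.9 kb), against 24.2 kb (1.54 to 1135.4 kb) for the other 37 tested members. Kcnip4, Kcnq5 and Kcnd2, at 1135.4, 563.5 and 514.3 kb, were longer than all of the 8 and did not pass. The 8 also had a higher median level (86.3 against 35.3 CPM) and exon length (9410 against 4508 bases). Which of these features goes with a call was not tested. Over all genes with an annotated span the median was 34.7 kb for those called lower, 21.4 kb for those called higher and 25.8 kb for all tested. In GRCm38 Kcnh7 lies on chromosome 2 from 62693414 to 63184287, Kcnb2 on chromosome 1 from 15287254 to 15723750, Kcnh1 on chromosome 1 from 192190774 to 192510159, Kcnq3 on chromosome 15 from 65986387 to 66286642 and Kcnh5 on chromosome 12 from 74897220 to 75177332. Not all were long: Kcnh2 spans 32.0 kb on chromosome 5 from 24319589 to 24351604, under the median of all genes called lower, and Kcnv1 spans 8.64 kb on chromosome 15 from 45106284 to 45114920. Transcript GC content had a median of 47.0% in the 8 and 54.3% in the other 37, and with a correction for GC content, added after seeing the data, 9 members were called, the 8 and Kcnc1.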

How the data were processed

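Poly(A) RNA of PrL tissue was sequenced after TRIzol extraction and dUTP second-strand labelling, per the labels' protocols. The authors deposited whole-number counts per gene symbol. The tools named are fastp, HISAT2 and StringTie, and the build GRCm38, per the submitters' processing notes. Versions, annotation, filter and use of strand in counting are not given in the sources used here, so members whose exons overlap other genes (13 of 46) are uncertain. The smallest count is 1. Counts of same-group libraries differed by a chi-square of 7.39 to 28.4 per degree of freedom, so no library copied another.

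Counts were tested with edgeR 4.0.16 (R 4.3.3): filterByExpr (13911 of 14765 genes), TMM, robust quasi-likelihood F-test, group only, two-sided, Benjamini-Hochberg over all genes, threshold 0.05, biological coefficient of variation 12.1%. The standard error is the log2 fold change divided by the square root of F. The fit was checked on simulated counts. Exon lengths, spans and GC come from GENCODE M21 (GRCm38), promoters from RefSeq (GRCm38.p6). Alternatives used DESeq2 1.42.0 and limma 3.58.1. Precision is limited for members under 100 counts, where sampling alone gives wide errors.

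Members, lists and tests were chosen with earlier results of these data known. Named with full statistics were members past the threshold and the 2 of smallest p in each subfamily; per-library values were also given for the most abundant member of each subfamily; of the partner and other channel lists, genes past the threshold and up to 4 of smallest p. Per-library values of further members and the markers' called genes were added after their values were seen. Some members are counted in the totals and not reported here by name.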

Additional observations from a re-analysis of the deposited data

Results flagged for a closer look

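In each group of 4 libraries the highest and lowest value of each member given here was compared with its neighbour by Dixon's ratio, against a critical value of 0.829. Of 84 groups 6 had a library that stood apart, and chance gives about 1 in 20. In SNI replicate 2, Kcnh3 was low at 126 CPM against 186 to 192 CPM in the other SNI libraries, Kcnq5 was high at 99.8 CPM against 83.2 to 85.9 CPM, and Kcns3 was low at 7.58 CPM against 8.05 to 8.13 CPM. In SNI replicate 4, Kcnh7 was low at 75.4 CPM against 84.1 to 85.6 CPM. In SNI replicate 3, Kcnh8 was high at 0.599 CPM against 0.347 to 0.372 CPM, which is 9 counts. In Sham replicate 4, Kcng4 was high at 6.08 CPM against 3.85 to 4.21 CPM.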

How the results depend on the processing

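All 20 alternatives kept the 8 members below 0, and 0 members were higher in any of them. Members called lower were 5 with library totals alone, 3 to 12 with 1 library left out, 1 when SNI replicates 2 and 3 were dropped, 2 when 2 and 4 were, and within 1.5 times of 8 in the rest (12 with DESeq2). Among the named members, Kcnh2 and Kcnq3 lost their calls with library totals (edgeR adjusted p = 0.0577 and 0.0587) and with the replicate block (0.0639 and 0.0700), Kcnh2 with the GC correction and block together (0.0664), and Kcnh1 with limma voom and quality weights (adjusted p = 0.0590), where Kcnc1 was called in its place. The count over all genes was 1165 with DESeq2, 258 to 858 with 1 library left out, 178 with SNI 2 and 3 dropped and 438 with SNI 2 and 4 dropped. For the partner list it was 1 with upper-quartile factors, library totals or the replicate block, 4 with DESeq2, 0 to 3 with 1 library left out, 0 with SNI 2 and 3 dropped, 1 with SNI 2 and 4 dropped and 5 with the GC correction. Fits that leave out libraries hold fewer samples. Without SNI replicate 1, 12 members and 858 genes were called, more than with all 8 libraries. The cause was not tested for any of these settings. Kcne1l, at -0.039 to 0.244 with 1 library left out, turned to -0.034 without SNI replicate 4, -0.039 without Sham replicate 3 and -0.059 with SNI 2 and 4 dropped, an edgeR adjusted p above 0.9 each time. Of 440 values of 22 members under the alternatives 381 kept direction and side of the threshold, 45 lost and 11 gained a call, and 3 reversed. The replicate block gave 6 members lower (5 of the 8, and Kcnab3) and 518 genes in all. Same-numbered libraries deviated with correlations of -0.165 to 0.0129, and no SNI library matched its own number best, so the numbers were not taken as pairs. Depth limits Kcnh8, Kcnq1, Kcng3 and Kcne4, at under 40 counts a library.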
